A study of Mus musculus with 8 samples.

Results

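The 10 genes described here encode regulators of entry into mitosis: the cyclins Ccna2, Ccnb1 and Ccnb2, the kinases Cdk1, Plk1, Aurka, Aurkb and Wee1, and the phosphatases Cdc25b and Cdc25c. They were chosen by name, and all 10 were among the 30419 gene names of the count table and among the 12255 names with enough counts to be tested. RNA came from 8 libraries of early-passage mouse embryonic fibroblasts, primary connective tissue cells grown from embryos at embryonic day 13.5. The 4 groups of 2 libraries, lettered A and B, were mutant cells (Dino loxP/loxP, called mutant by the labels, which name no Cre) with doxorubicin, mutant control cells, WT cells (Dino+/+) with doxorubicin, and WT control cells. Doxorubicin, which causes DNA breaks, was given at 0.2 µg/mL for 8 h, and control cells of either genotype received vehicle alone. Dino, next to Cdkn1a in the genome, encodes a noncoding RNA, and the series asks which genes depend on it for their expression.

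Cyclin B bound to Cdk1 is the kinase that drives a cell into mitosis, and cyclin A prepares that step. Wee1 holds Cdk1 inactive by phosphorylating it, and the Cdc25 phosphatases remove that mark. Plk1 and Aurka favour the activation of Cdk1, and Aurkb, with its partners, corrects the attachment of chromosomes to the spindle. In cells with active p53, the inhibitor p21 lets pocket proteins and the MuvB complex assemble on the promoters of such genes and repress them. A short element there, the cell cycle genes homology region (CHR), is bound by MuvB and often lies close to CCAAT boxes, which are bound by the factor NF-Y.

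The letters of the promoters are shown because the genes fell together with doxorubicin. RefSeq promoter windows (build GRCm38.p6) were matched by symbol for 6 of the 10 genes: Ccnb1, Ccnb2, Cdk1, Plk1, Aurka and Cdc25b. None is shown for Ccna2 (chr3:36564865-36572150, minus strand), Aurkb (chr11:69045647-69051664, plus strand), Cdc25c and Wee1 (chr7:110122046-110143286, plus strand; gene positions on GRCm38). Each line gives 180 bases of the gene's own strand, from 130 before the annotated start to 50 after it. Capitals mark the CHR letters TTTGAA or TTTAAA and the CCAAT letters, searched on both strands (CCAAT on the other strand reads ATTGG, and TTTAAA reads the same on both).
Ccnb1, chr13:100786437-100786616, minus strand: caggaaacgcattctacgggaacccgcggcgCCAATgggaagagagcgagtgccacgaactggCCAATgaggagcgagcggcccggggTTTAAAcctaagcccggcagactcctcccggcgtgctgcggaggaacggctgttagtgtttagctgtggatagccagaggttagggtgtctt
Ccnb2, chr9:70421505-70421684, minus strand: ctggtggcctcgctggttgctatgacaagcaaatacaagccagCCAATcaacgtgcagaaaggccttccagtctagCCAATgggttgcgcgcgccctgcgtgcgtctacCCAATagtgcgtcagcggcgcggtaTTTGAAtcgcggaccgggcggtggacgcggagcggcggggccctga
Cdk1, chr10:69352863-69353042, minus strand: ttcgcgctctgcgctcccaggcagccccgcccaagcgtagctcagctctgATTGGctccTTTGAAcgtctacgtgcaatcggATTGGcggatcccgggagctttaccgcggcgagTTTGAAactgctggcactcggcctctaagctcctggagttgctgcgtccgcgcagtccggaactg
Plk1, chr7:122159305-122159484, plus strand: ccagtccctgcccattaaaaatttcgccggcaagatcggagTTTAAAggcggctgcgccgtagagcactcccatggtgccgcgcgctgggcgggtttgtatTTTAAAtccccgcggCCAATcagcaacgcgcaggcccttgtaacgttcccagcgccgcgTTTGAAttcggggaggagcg
Aurka, chr2:172370521-172370700, minus strand: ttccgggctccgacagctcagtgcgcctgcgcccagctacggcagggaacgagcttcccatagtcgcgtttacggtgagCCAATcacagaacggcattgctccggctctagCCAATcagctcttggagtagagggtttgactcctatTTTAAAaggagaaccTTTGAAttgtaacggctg
Cdc25b, chr2:131186818-131186997, plus strand: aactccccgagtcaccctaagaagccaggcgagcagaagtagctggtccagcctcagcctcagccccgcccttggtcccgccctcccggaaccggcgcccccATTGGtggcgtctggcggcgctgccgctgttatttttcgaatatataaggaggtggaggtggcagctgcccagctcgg

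In Ccnb1, 2 CCAAT boxes beginning 99 and 67 bases before the start precede 1 TTTAAA beginning 42 bases before it. In Ccnb2, 3 CCAAT boxes precede a TTTGAA that begins at base 5 of the transcript. In the letters shown for Cdk1, TTTGAA begins 71 and 15 bases before the start, and ATTGG 80 and 48 bases before the start. In Plk1, TTTAAA begins 89 and 29 bases before the start and TTTGAA 31 bases into the transcript. Its 1 CCAAT box begins 14 bases before the start. In Aurka, CCAAT boxes begin 51 and 19 bases before the start, and TTTAAA and TTTGAA begin 18 and 33 bases into the transcript. Cdc25b held 1 ATTGG and neither CHR letter string. Over the whole windows of 300 bases, 5 of the 6 genes held TTTGAA or TTTAAA, against 27.6% of all 32851 promoter windows, and 4 of 6 held it together with at least 2 CCAAT boxes, against 3.13% of all windows. These matches describe letters, and no binding was measured.

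Total counts per library ran from 25482805 to 33285171. Values are CPM, counts scaled to a common library size after TMM normalization, and since the counts were not divided by gene length, levels are compared between groups and not between genes. Calls were made by edgeR's quasi-likelihood test, where the Benjamini-Hochberg p over the 12255 genes was below 0.05. Nothing in the labels says that libraries A and B came from separate cultures or embryos, so p-values measure the spread between these libraries, which may be technical. Libraries A and B of WT cells with doxorubicin lay further apart (a chi-square of 18.2 for each degree of freedom, across genes) than those of the other groups (5.43 to 6.16). The summed level of 9 fibroblast markers was 3300 to 3480 CPM in mutant cells with doxorubicin and 3650 to 3780 CPM in mutant controls, and 3480 to 3710 CPM in WT cells with doxorubicin and 3750 to 4060 CPM in WT controls. Col1a2 and Vim make up most of that sum, and single markers moved further and in both directions. Pdgfra averaged 23.8 CPM in mutant cells with doxorubicin and 83.0 CPM in mutant controls, and 19.6 CPM in WT cells with doxorubicin and 73.5 CPM in WT controls, while Dcn averaged 61.6 against 44.6 CPM in mutant cells and 51.3 against 36.4 CPM in WT cells. Summed over the 6 macrophage and leukocyte markers in the table, of 7 listed, the level was 31.0 to 35.3 CPM in mutant cells with doxorubicin against 26.8 to 27.4 CPM in mutant controls, and 30.9 to 31.9 CPM in WT cells with doxorubicin against 20.4 to 21.5 CPM in WT controls, and none of these 6 was at 0 in every library. The summed level of 5 endothelial markers, of which 1 was at 0 in every library of each group, was 5.68 to 5.85 CPM in mutant cells with doxorubicin against 1.34 to 1.73 CPM in mutant controls, and 6.63 to 11.1 CPM in WT cells with doxorubicin against 2.08 to 2.96 CPM in WT controls. Most of that rise was Tek, which averaged 4.49 against 0.427 CPM in mutant cells and 7.52 against 0.977 CPM in WT cells. Kdr averaged 1.02 against 0.868 CPM in mutant cells and 0.875 against 1.22 CPM in WT cells. The summed level of 4 skeletal muscle markers was 2.49 to 2.96 against 3.66 to 4.80 CPM in mutant cells and 2.82 to 3.16 against 4.84 to 4.90 CPM in WT cells. Acta1 made up most of it, at 1.93 against 3.92 CPM in mutant cells and 2.17 against 4.34 CPM in WT cells. Des went the other way, at 0.716 against 0.290 CPM in mutant cells and 0.707 against 0.442 CPM in WT cells. The summed level of 4 epithelial markers was at most 0.813 CPM in any library. The part of these shifts in the results below was not tested.

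All 10 genes fell with doxorubicin in mutant cells and all 10 fell in WT cells. Of all genes tested, 25.9% were called lower in mutant cells and 28.1% in WT cells, while 28.3% were called higher in mutant cells and 29.3% in WT cells. The median log2 fold change of the 10 genes was -0.76 in mutant cells and -1.14 in WT cells, beside 0.01 over all genes tested in either genotype. These are bulk libraries, in which fewer cells in G2 and mitosis and less of the RNA in each such cell cannot be told apart.

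**Figure D1:**
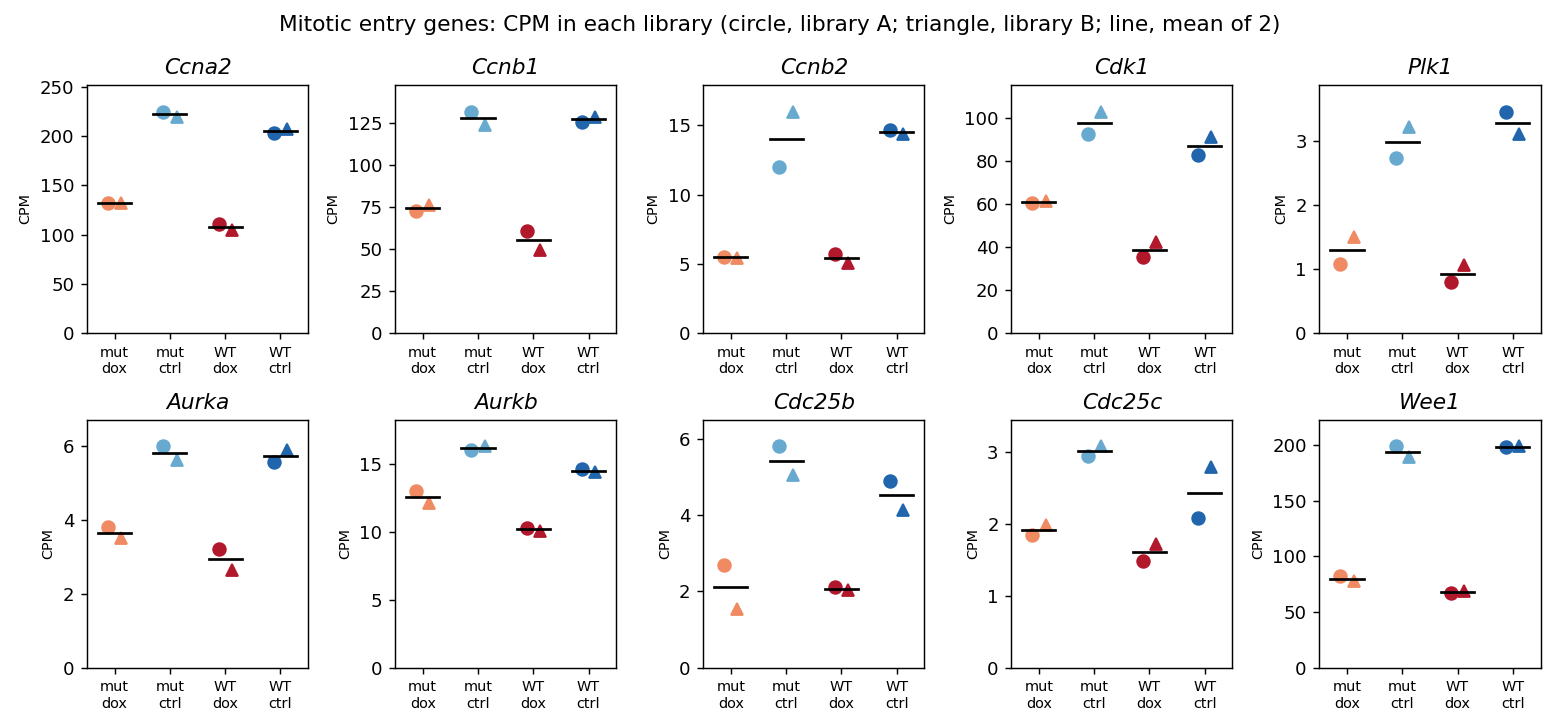
Level of each gene in each library, in CPM on a linear axis that starts at 0, for mutant cells with doxorubicin, mutant controls, WT cells with doxorubicin and WT controls; circles and triangles are libraries A and B and the line is the mean of the 2. Wee1, for example, was at 67.4 and 68.8 CPM in WT cells with doxorubicin, against 198 and 199 CPM in WT controls.

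Ccnb1, the cyclin B that pairs with Cdk1 at mitotic entry, had 72.5 and 76.1 CPM in mutant cells with doxorubicin, against 132 and 124 CPM in mutant controls. In WT cells it had 61 and 49.5 CPM with doxorubicin, against 126 and 129 CPM in controls. Its treated level was 58.2% of the control level in mutant cells (log2 fold change -0.78 ± 0.08 (SE), adjusted p = 8.73e-08) and 43.3% in WT cells (-1.21 ± 0.09, adjusted p = 9.73e-11). Ccnb1 and Ccnb2 each have an annotated pseudogene, Ccnb1-ps and Ccnb2-ps, which can share reads with them and leaves their counts uncertain.

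Ccnb2, the other B-type cyclin of dividing somatic cells, had 5.48 and 5.45 CPM in mutant cells with doxorubicin, against 12 and 16 CPM in mutant controls. WT cells had 5.73 and 5.07 CPM with doxorubicin, against 14.7 and 14.4 CPM in WT controls. The treated libraries of the genotypes overlapped, and the log2 fold change was -1.35 ± 0.14 in mutant and -1.43 ± 0.14 in WT cells (adjusted p = 5.42e-08 and 1.27e-08).

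Ccna2, which encodes the cyclin A that acts in S phase and G2, stood at 132 CPM in both libraries of mutant cells with doxorubicin, against 225 and 219 CPM in mutant controls. In WT cells it had 111 and 105 CPM with doxorubicin, against 203 and 207 CPM in controls. It retained 59.6% of its control level in mutant cells and 52.6% in WT cells (log2 fold change -0.75 ± 0.07 and -0.93 ± 0.07, adjusted p = 5.31e-09 and 1.47e-10). On GRCm38, Ccna2 shares 510 exonic bases with Exosc9 on the opposite strand, and the strand setting of the counting was not given in the sources used here, so its counts are uncertain.

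Cdk1, the catalytic partner of the mitotic cyclins, had 60.3 and 61.4 CPM in mutant cells with doxorubicin, against 92.7 and 103 CPM in mutant controls. WT cells with doxorubicin had 35.2 and 42.3 CPM, against 82.6 and 91.2 CPM in WT controls. All 4 treated libraries were below all 4 controls, and the WT treated pair was the lowest. The log2 fold change was -0.68 ± 0.09 in mutant cells (adjusted p = 1.06e-06) and -1.17 ± 0.09 in WT cells (adjusted p = 3.56e-10).

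Wee1, the kinase that opposes Cdk1, fell along with Cdk1. It had 82.3 and 77.8 CPM in mutant cells with doxorubicin, against 199 and 189 CPM in mutant controls, and 67.4 and 68.8 CPM in WT cells with doxorubicin, against 198 and 199 CPM in WT controls. Libraries A and B differed by little in each group, and 41.3% of the control level was left in mutant cells and 34.3% in WT cells. The log2 fold changes were -1.28 ± 0.07 in mutant and -1.54 ± 0.07 in WT cells (adjusted p = 1.71e-12 and 6.66e-14), and the adjusted p-values were the lowest of the 10 genes in either genotype.

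Of the phosphatases that activate Cdk1, Cdc25b had 2.68 and 1.54 CPM in mutant cells with doxorubicin, against 5.8 and 5.05 CPM in mutant controls. In WT cells it had 2.12 and 2.03 CPM with doxorubicin, against 4.9 and 4.14 CPM in controls. Its log2 fold change was -1.36 ± 0.21 in mutant cells and -1.11 ± 0.21 in WT cells (adjusted p = 1.24e-05 and 9.71e-05), and it rests on 39 to 67 counts in a treated library. Cdc25b shares 92 exonic bases with Spef1 on the opposite strand on GRCm38, which leaves its counts uncertain.

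Cdc25c had 1.84 and 1.98 CPM in mutant cells with doxorubicin, against 2.95 and 3.08 CPM in mutant controls, and 1.49 and 1.72 CPM in WT cells with doxorubicin, against 2.08 and 2.79 CPM in WT controls. The log2 fold change was -0.66 ± 0.22 in mutant cells (adjusted p = 0.0141) and -0.61 ± 0.22 in WT cells (adjusted p = 0.0225). These 2 calls had the highest adjusted p of the 20 and were lost with DESeq2 (adjusted p = 0.0758 in mutant cells and 0.108 in WT cells). The mutant call was also lost without mutant doxorubicin library A (adjusted p = 0.0768) or mutant control library B (0.0657), and the WT call without WT doxorubicin library A (0.123) or WT control library B (log2 fold change -0.37, adjusted p = 0.278). Cdc25c shares 623 exonic bases with Gm3550 on the opposite strand on GRCm38.

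Plk1, the polo-like kinase that activates Cdc25 and marks Wee1 for destruction, had 1.08 and 1.5 CPM in mutant cells with doxorubicin, against 2.74 and 3.22 CPM in mutant controls. In WT cells it had 0.795 and 1.06 CPM with doxorubicin, against 3.46 and 3.11 CPM in controls. In mutant cells Plk1 retained 43.4% (log2 fold change -1.20 ± 0.24, adjusted p = 0.000221). At 28.6% of the control level, it had the lowest point estimate of the 10 genes in WT cells (log2 fold change -1.81 ± 0.24, adjusted p = 1.44e-06), on 24 and 34 counts in the treated libraries. Its 95% interval of -2.31 to -1.31 overlapped those of Wee1 (-1.69 to -1.40), Ccnb2 (-1.71 to -1.14), Ccnb1, Cdk1 and Cdc25b, so its place below them is within error. Plk1 shares 156 exonic bases with Gm44985 on the opposite strand on GRCm38.

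Aurka, the centrosomal Aurora kinase, had 3.8 and 3.52 CPM in mutant cells with doxorubicin, against 6 and 5.63 CPM in mutant controls, and 3.21 and 2.66 CPM in WT cells with doxorubicin, against 5.57 and 5.9 CPM in WT controls. The log2 fold change was -0.67 ± 0.16 in mutant and -0.97 ± 0.16 in WT cells (adjusted p = 0.00137 and 2.44e-05).

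Aurkb, the Aurora kinase of the chromosomal passenger complex, had 13 and 12.1 CPM in mutant cells with doxorubicin, against 16 and 16.3 CPM in mutant controls. Its level was 10.3 and 10.1 CPM in WT cells with doxorubicin, against 14.6 and 14.4 CPM in WT controls. It retained 77.6% in mutant cells and 70.4% in WT cells, the highest shares of the 10 genes (log2 fold change -0.37 ± 0.10 and -0.51 ± 0.10, adjusted p = 0.00502 and 0.000275). Its interval in WT cells, -0.72 to -0.29, overlapped those of Aurka (-1.30 to -0.64), Cdc25b (-1.55 to -0.68) and Cdc25c (-1.07 to -0.15), and not those of the other 6 genes, such as Ccnb1 (-1.39 to -1.03) and Cdk1 (-1.35 to -0.98). The call in mutant cells was lost without mutant doxorubicin library B (adjusted p = 0.0592).

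**Figure D2:**
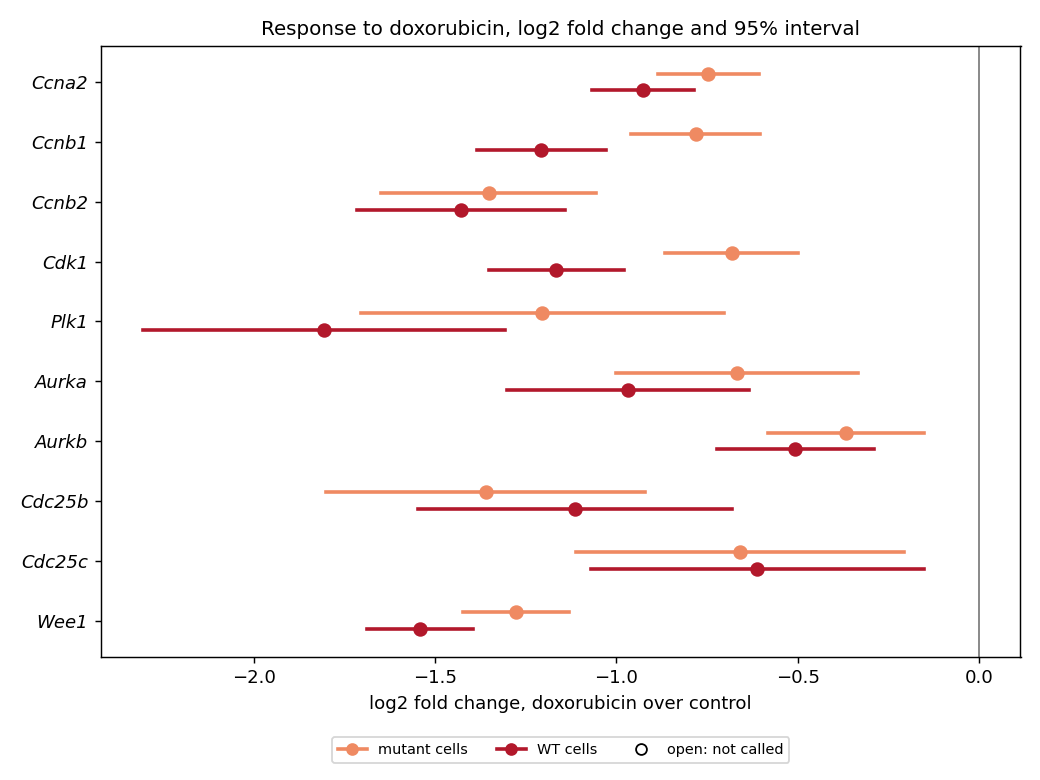
Log2 fold change of each gene with doxorubicin over control, as points with 95% intervals, in mutant cells (upper of each pair) and WT cells (lower); filled points passed the test. All 20 points are filled and lie below 0, from -1.81 for Plk1 in WT cells to -0.37 for Aurkb in mutant cells.

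Other genes of the pathway showed a mixed response. Of 24 further genes of mitotic entry, 20 were tested, of which 12 fell and 4 rose in mutant cells and 12 fell and 3 rose in WT cells (median log2 fold change -0.42 and -0.45). Over all genes tested, 25.9% fell and 28.3% rose in mutant cells, and 28.1% fell and 29.3% rose in WT cells. Foxm1, which encodes an activator of G2/M genes, had 3.54 and 4.01 CPM in WT cells with doxorubicin, against 9.85 and 9.19 CPM in WT controls (log2 fold change -1.33 ± 0.14, adjusted p = 6.62e-08). Tpx2, the activator of Aurka at the spindle, had a log2 fold change of -1.54 ± 0.08 in WT cells, and the centrosomal kinase gene Nek2 one of -1.56 ± 0.16, and both fell in mutant cells too. Gtse1, a gene that p53 is known to induce and that is otherwise expressed in G2, went the other way. It had 35.3 and 35.8 CPM in mutant cells with doxorubicin, against 9.98 and 12.2 CPM in mutant controls, and 33.6 and 31.8 CPM in WT cells with doxorubicin, against 11.6 and 8.95 CPM in WT controls (log2 fold change 1.68 ± 0.12 in each genotype). These lists, like the 10 genes, were drawn up with earlier results of these data known.

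Of the 3 partners of Aurkb in the chromosomal passenger complex, 2 fell in mutant cells, with log2 fold changes of -0.96 ± 0.19 for Cdca8 and -0.69 ± 0.07 for the survivin gene Birc5, and the scaffold gene Incenp did not pass (-0.24 ± 0.10, adjusted p = 0.0583). In WT cells all 3 fell (Cdca8 -1.24 ± 0.18, Birc5 -1.07 ± 0.07 and Incenp -0.72 ± 0.10). Of 16 tested genes of the anaphase-promoting complex (APC/C), which ends mitosis by marking cyclins for destruction, and of its regulators, 7 fell and 3 rose in mutant cells and 5 fell and 2 rose in WT cells. Beside these counts, 25.9% of all genes tested fell and 28.3% rose in mutant cells, and 28.1% fell and 29.3% rose in WT cells. Fbxo5, whose product Emi1 inhibits the APC/C, had 6.06 and 7.17 CPM in WT cells with doxorubicin, against 31.8 and 34 CPM in WT controls (log2 fold change -2.31 ± 0.11). Ube2c, the ubiquitin-conjugating enzyme of the APC/C, and the subunit gene Cdc27 fell in WT cells (-0.90 ± 0.08 and -0.67 ± 0.07), while the subunit gene Anapc2 rose (0.75 ± 0.14).

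Of 14 tested genes of the G2 checkpoint, 7 rose and 5 fell in mutant cells and 7 rose and 4 fell in WT cells. The shares over all genes tested, for this list and the pocket protein list below, were 28.3% higher and 25.9% lower in mutant cells. In WT cells they were 29.3% higher and 28.1% lower. Cdkn1a, which encodes p21, had 49.9 and 51.7 CPM in mutant cells with doxorubicin, against 8.61 and 9.35 CPM in mutant controls, and 72.5 and 66.2 CPM in WT cells with doxorubicin, against 11.3 and 13.8 CPM in WT controls (log2 fold change 2.50 ± 0.10 in mutant and 2.46 ± 0.10 in WT cells). Ppm1d, a phosphatase that ends checkpoint signalling, rose by a log2 fold change of 2.05 ± 0.09 in WT cells. Rprm, whose product reprimo is linked to G2 arrest, rose by 4.12 ± 0.22 in WT cells and by 3.09 ± 0.21 in mutant cells. In WT cells this rests on 319 and 320 counts with doxorubicin against only 9 and 27 counts in controls. Sfn, the 14-3-3 sigma gene whose product keeps cyclin B and Cdk1 out of the nucleus, rose by 1.58 ± 0.33, on 54 and 62 counts in WT cells with doxorubicin against 16 and 22 counts in WT controls. Of 8 genes of pocket proteins, repressive E2F factors and the E2F partner Tfdp1, 2 rose and 1 fell in mutant cells, and 2 rose and 2 fell in WT cells. Rb1 had 299 and 287 CPM in WT cells with doxorubicin, against 38.3 and 36.1 CPM in WT controls (log2 fold change 2.98 ± 0.07), Rbl2 rose by 1.86 ± 0.19, and E2f8 and E2f4, which encode repressive E2F factors, fell (-2.30 ± 0.13 and -0.58 ± 0.14).

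**Figure D3:**
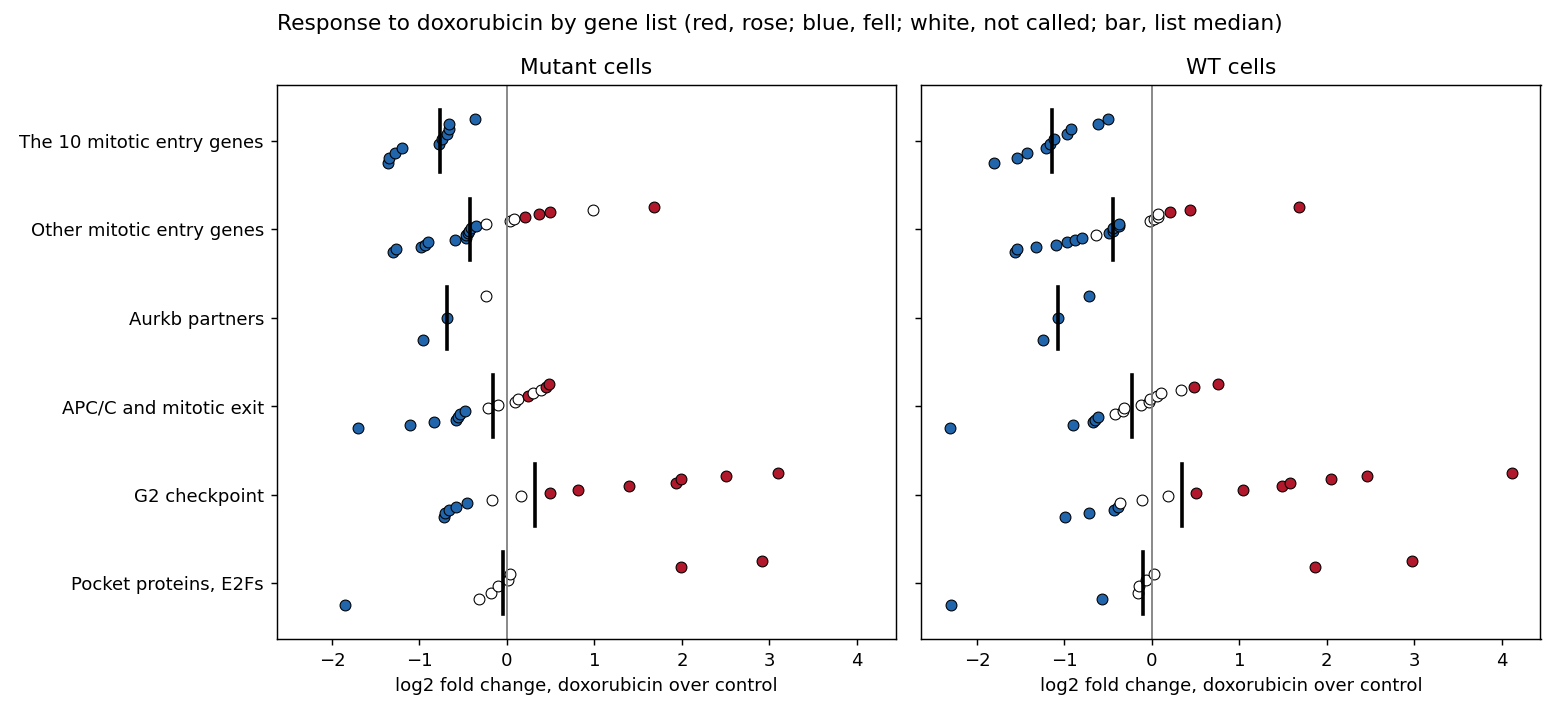
Log2 fold change of each tested gene with doxorubicin over control, in mutant cells (left) and WT cells (right), by gene list; red points rose, blue points fell, white points were not called and the bar is the median of the list. The 10 mitotic entry genes lie below 0 in both panels, with medians of -0.76 and -1.14, while the G2 checkpoint list spans both sides of 0.

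The genotypes were then compared at the same treatment. With doxorubicin, 4 of the 10 genes (Cdk1, Ccnb1, Ccna2 and Wee1) were called higher in mutant cells and none was called lower, against 7.74% of all genes tested that were called in either direction. The log2 fold change was above 0 for all 10, beside 6089 of all 12255 genes tested, and 2 of the 10, Ccnb2 and Cdc25b, were at 0.02. The median was 0.29 for the 10 genes and -0.001 over all genes tested. Cdk1 had the largest difference, at 60.3 and 61.4 CPM in mutant cells with doxorubicin against 35.2 and 42.3 CPM in WT cells with doxorubicin, 157% of the WT level (log2 fold change 0.65 ± 0.09, adjusted p = 4.71e-05). Ccnb1 was at 134% (0.43 ± 0.09, adjusted p = 0.00262), Ccna2 at 123% (0.29 ± 0.07, adjusted p = 0.00812) and Wee1 at 117% (0.23 ± 0.07, adjusted p = 0.0476).

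The Cdk1 and Ccnb1 calls held under all 17 alternatives. These 17 include the reported fit read at an adjusted p under 0.10, which could not lose a call. Ccna2 was lost without mutant doxorubicin library A (adjusted p = 0.0574) or B (0.0568). Wee1 was called in only 6 of 17, with adjusted p-values from 0.0322 to 0.318. Plk1, Aurka, Aurkb and Cdc25c did not pass the test, with 95% intervals of -0.13 to 1.06, -0.04 to 0.68, 0.07 to 0.52 and -0.24 to 0.74. The libraries of Ccnb2 and Cdc25b overlapped, with log2 fold changes of 0.02 ± 0.16 and 0.02 ± 0.24.

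In control cells, by edgeR's test, none of the 10 genes was called between mutant and WT cells, against 5.92% of all genes tested, and none had an unadjusted p under 0.05, against 15.4% of all genes tested. DESeq2 and limma-voom also called none. Log2 fold changes ran from -0.13 ± 0.20 for Plk1 to 0.30 ± 0.20 for Cdc25c. The best measured genes had the narrowest 95% intervals, -0.17 to 0.11 for Wee1, -0.03 to 0.25 for Ccna2 and -0.17 to 0.17 for Ccnb1. In order of level, Cdk1, Ccnb1, Ccna2 and Wee1 were higher in mutant than in WT cells with doxorubicin, and highest in the controls of both genotypes, whose difference did not pass the test.

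**Figure D4:**
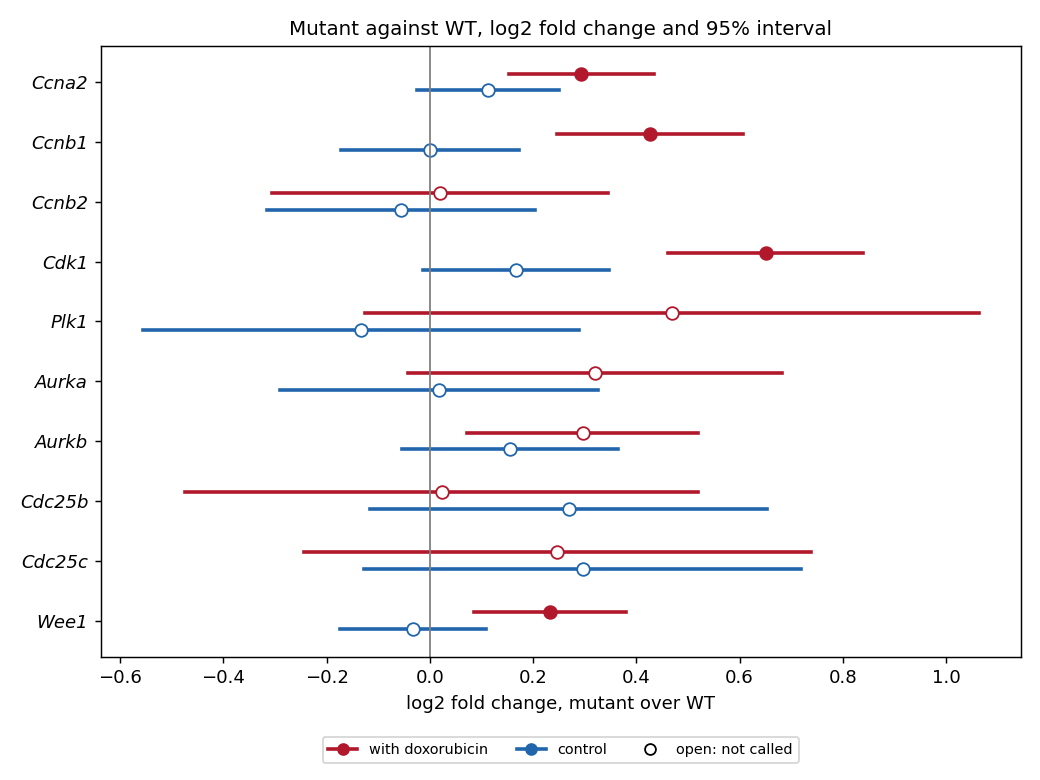
Log2 fold change of each gene in mutant over WT cells, as points with 95% intervals, with doxorubicin (upper of each pair) and in control cells (lower); filled points passed the test. With doxorubicin the 10 points lie above 0 and those of Ccna2, Ccnb1, Cdk1 and Wee1 are filled, and in control cells none is filled.

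Genes around these followed in part. Of all genes tested, 3.92% were called higher and 3.82% lower in mutant than in WT cells with doxorubicin, beside the counts given here. With doxorubicin, 4 of the 20 other genes of mitotic entry were called higher in mutant cells and none lower: Bub1 (log2 fold change 0.54 ± 0.09), Foxm1 (0.54 ± 0.15), Nek2 (0.68 ± 0.18) and Mastl (0.44 ± 0.10), of which Bub1 and Mastl are named because they were called. Unlike the 10 genes, Mastl did not fall with doxorubicin. Its response was 0.07 ± 0.10 in WT cells, which did not pass, and it rose in mutant cells (0.49 ± 0.10). Among the partners of Aurkb, Incenp and Birc5 were higher in mutant cells (0.53 ± 0.11 and 0.36 ± 0.07), and Fbxo5 (0.69 ± 0.12) and Ube2c (0.37 ± 0.08) were the 2 genes of the APC/C list that were called. In the G2 checkpoint list Cdkn1a (-0.45 ± 0.09, adjusted p = 0.00231) and Sfn (-1.23 ± 0.33, adjusted p = 0.0228) were lower in mutant cells with doxorubicin. Between control cells the log2 fold change of Sfn was -1.58 ± 0.49 and did not pass (adjusted p = 0.0611). Its mutant values rest on 13 and 27 counts with doxorubicin and on 7 and 5 counts in controls. Cdkn1a was also lower in mutant control cells (-0.49 ± 0.11, adjusted p = 0.00827), and the part of this difference in the levels of the 10 genes was not tested.

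The difference between the responses, mutant minus WT, tests whether the fall itself differed by genotype. By edgeR's test it was called for none of the 10 genes, against 0.0734% of all genes tested, and 3 of the 10 had an unadjusted p under 0.05, as did 697 of all genes tested (5.69%). DESeq2 and limma-voom called none either, and without the filter on low counts Cdk1 was called (0.47, adjusted p = 0.0452). The difference was 0.48 for Cdk1 (95% interval 0.22 to 0.74, adjusted p = 0.223), 0.43 for Ccnb1 (0.18 to 0.68, adjusted p = 0.334) and 0.27 for Wee1 (0.06 to 0.47, adjusted p = 0.647). It was above 0 for 8 of the 10, beside 6379 of all 12255 genes tested, with a median of 0.22 beside 0.01 over all genes tested. It was below 0 for Cdc25b (-0.25, interval -0.87 to 0.38) and Cdc25c (-0.05, interval -0.70 to 0.60). Over the 16 alternatives run for it, the difference ran from 0.35 to 0.62 for Cdk1 and from 0.27 to 0.57 for Ccnb1. The highest value came without WT doxorubicin library B for Cdk1, and without library A of the same group for Ccnb1.

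The libraries of the genotypes also differed in sex-linked expression. Xist, the RNA of the inactive X chromosome, averaged 522 ± 74.5 CPM in mutant cells with doxorubicin and 0.304 ± 0.102 CPM in WT cells with doxorubicin (SD, n = 2), and 233 ± 29.4 CPM in mutant controls and 0.277 ± 0.0236 CPM in WT controls. The Y-linked gene Ddx3y was at 59.6 ± 1.31 against 460 ± 17.5 CPM with doxorubicin, and at 74.0 ± 0.00800 against 546 ± 48.4 CPM in controls. Sex-linked expression and the Dino genotype cannot be told apart in any comparison of mutant and WT cells.

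Across the 8 libraries the 10 genes had similar profiles. Pearson's r of log2 CPM between 2 of them ran from 0.79 (Cdc25b and Cdc25c) to 0.99 (Aurka and Ccnb1), as a description over 8 libraries in 4 groups. All 10 fell with doxorubicin in both genotypes, and a shared fall alone gives a high r over these libraries. Among genes averaging 4 CPM or more, those closest to the mean standardised profile of the 10 were Amer1 (r = 1.00, log2 fold change -0.95 ± 0.09 in mutant and -1.08 ± 0.09 in WT cells), Grwd1, Fbxo5, Hcfc1 and Zfp763. The nearest gene to Ccna2 was Cenpf, to Ccnb1 Kif4, to Cdk1 Mad2l1, to Aurka Depdc1a and to Aurkb Ttk. The nearest to Wee1 was Ndufaf4 (-1.40 ± 0.08 in mutant and -1.63 ± 0.08 in WT cells), to Ccnb2 Ptpmt1, to Plk1 Tmem231 and to Cdc25c 1700025G04Rik. For each of these pairs r was between 0.98 and 1.00.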

How the data were processed

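The deposited table holds raw counts per gene name for 8 libraries, and whole numbers with unequal totals show that the authors had not normalized it. Bowtie2, HTSeq and the mm9 build are named, per the submitters' processing notes, and the labels' protocols give both the TruSeq RNA Access kit and 3' RNA sequencing. Annotation and strand setting were not given in the sources used here.

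Genes were kept by filterByExpr (a minimum count of 10 and a total of 15, over the 4 groups) and scaled by TMM in edgeR 4.0.16 under R 4.3.3. One quasi-likelihood fit of the 4 group means used the 8 libraries together, with 4 residual degrees of freedom and a biological coefficient of variation of 0.0636. Tests were two-sided, with Benjamini-Hochberg adjustment across the 12255 genes that were kept. SE is the size of the log2 fold change over the square root of F. The steps were tested on simulated data. Alternatives were DESeq2 size factors, upper-quartile factors, DESeq2 1.42.0, limma-voom (limma 3.58.1), no filter, 5 CPM in 2 libraries, an adjusted p of 0.10, a replicate block, a fit to the compared libraries alone, and each library left out in turn.

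The members and lists were chosen with earlier results of these data known. Other genes named are up to 4 of each list with the largest change in WT cells, and the nearest patterns, of which 1 is not reported here. Gene positions and overlaps came from GENCODE M21 on GRCm38, not from mm9.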

Additional observations from a re-analysis of the deposited data

How the results depend on the processing

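All 10 genes kept their direction with doxorubicin in both genotypes under every alternative run. The filter at 5 CPM left 7 of them tested, all called. For the difference of responses, the number of the 10 genes called was 1 with no filter and 0 to 1 when 1 library was left out. Over all genes that number, 9 as reported, was 18 with DESeq2, 4 with limma-voom, 48 with no filter, 5 with the 5 CPM filter, 18 at an adjusted p under 0.10, 14 with the replicate block and 0 to 51 with 1 library left out (51 without WT doxorubicin library B). With 1 library left out, 2 to 3 of the 10 genes were called between mutant and WT cells with doxorubicin, and over all genes 530 to 1214 (949 as reported), and 388 to 848 in control cells (726 as reported). Where a group is left with 1 library, that library is assumed to vary like the others.

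Values near 0 changed sign. With 1 library left out, the difference of responses ran from -0.13 to 0.30 for Ccnb2, -0.70 to 0.094 for Cdc25b and -0.29 to 0.14 for Cdc25c on the log2 scale. Likewise, mutant over WT with doxorubicin ran from -0.0629 to 0.11 for Ccnb2 and -0.43 to 0.37 for Cdc25b, which was -0.0285 with limma-voom. In control cells it ran from -0.0347 to 0.0453 for Ccnb1, -0.28 to 0.14 for Ccnb2, -0.0253 to 0.0649 for Aurka and -0.0621 to 0.0062 for Wee1, and Ccnb1 was at -2e-04 with limma-voom and -0.001 with the replicate block. The cause was not tested.

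Libraries of the same letter did not deviate together (correlations of the A minus B differences from -0.0249 to 0.0314), and the replicate block changed no call of the 10 genes. Whether the letters pair the samples is not settled by this, since a shared origin need not leave a shared deviation and the labels do not say what the letters mark. Plk1, Cdc25b and Cdc25c, the genes with the fewest counts, have the widest intervals.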

Other observations

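The promoter letters shown for the 10 genes also occur in other genes. Among genes other than the 10 whose RefSeq window held TTTGAA or TTTAAA together with at least 2 CCAAT boxes, 301 were tested. With doxorubicin in mutant cells, 90 of the 301 (29.9%) fell and 75 (24.9%) rose, beside 25.9% and 28.4% of all 8893 tested genes with a window. In WT cells 110 of the 301 (36.5%) fell and 71 (23.6%) rose, beside 28.2% and 29.8%, and the median log2 fold change was -0.13, beside 0.01. Of the 2018 tested genes with TTTGAA or TTTAAA, whatever their CCAAT boxes, 30.9% fell in WT cells. These shares describe letters in a window, and the lists were not tested.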
